A study of Homo sapiens with 22 samples.

Results

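The 5 arrays of JHOC9 cells and the 5 arrays of JHOC5 cells that had received the non-target (NT) control lentivirus were compared as the baseline of both lines. They are 10 of the 22 arrays of a study of SPINK1 and IL-6 knockdown, and were taken by their titles. Of the 65526 transcript clusters measured, 62840 were described, which leaves out 2686 clusters whose IDs start with TC0X or TC0Y. Both lines are established lines of ovarian clear cell carcinoma. JHOC9 was kept in DMEM/F12 medium with 20% fetal bovine serum and JHOC5 in the same medium with 10%. The cells of all 10 arrays were infected with the NT virus, so neither group is uninfected. The other 12 arrays are 3 of each line with a virus against SPINK1 and 3 of each line with a virus against IL-6. The titles give a single knockdown number per target, the same in both lines. Effects of that construct and of its target therefore cannot be told apart. Effects of the line, of the serum and of a batch that follows the line cannot be told apart in these arrays, and each line stands for 1 tumour.

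Ovarian clear cell carcinoma is a form of ovarian cancer named for the clear, glycogen-rich cytoplasm of its cells, and it is often found together with endometriosis. A control lentivirus carries a short hairpin that is meant to match no human transcript, so that infected cells can be compared with cells given a targeting hairpin. SPINK1 encodes a secreted inhibitor of trypsin, and IL-6 is a cytokine that signals through JAK kinases and STAT3. A transcript cluster is the unit of the array for 1 transcribed region and gathers the probes along it. No gene name goes with a cluster ID in the files, which do not pair them, so clusters are given by ID, and the markers of this tumour, of epithelium and of other cell types were not analysed here.

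In the titles, the NT arrays of either line carry the experiment letters A to E and the replicate letters a to e. Separate cultures are not stated, so the p-values measure only how far arrays spread within groups, and part of that spread may be technical. The spread was estimated from all 22 arrays, so the knockdown arrays also enter the SEs and p-values of the NT comparison. Signals are given here as log2 of the deposited linear values, and their median per array lay between 4.78 and 4.95 over all 22 arrays. These are signals and not read counts, so precision is limited by how many arrays each group has.

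The 2 lines were far apart in expression. Over the 62840 clusters, log2 signals of 2 JHOC9 NT arrays correlated at r between 0.992 and 0.996, those of 2 JHOC5 NT arrays between 0.994 and 0.997, and those of arrays from different lines between 0.963 and 0.969. These correlations run across clusters of the same array design and are given as a description. The first principal component of the 10 arrays held 78.4% of the variance and separated the lines, with JHOC9 arrays between 56.5 and 60.2 and JHOC5 arrays between -63.4 and -56.2. The second held 5.56%, and the lines overlapped on it.

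The typical cluster differed little between the lines. The median absolute difference of the group means was 0.12 on the log2 scale, and the 95th and 99th percentiles were 0.90 and 2.02. The SD of a cluster over 5 arrays had a median of 0.108 in JHOC9 and 0.0956 in JHOC5, and it was the larger in JHOC9 for 37050 clusters, or 59.0%. The moderated SE of the difference had a median of 0.0746.

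Differences between the lines were called with limma at an adjusted p under 0.05. Of the 62840 clusters, 18833 passed, or 30%, against 30.1% of the whole table. In JHOC9, 10810 were higher, 17.2% against 17% of the whole table, and 8023 were lower, 12.8% against 13%. Nearly all clusters of the table belong to those described, so these shares are close by construction. The median difference of the clusters called higher was 0.38, and that of the clusters called lower was -0.46.

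Most of the excess of higher clusters lay among small differences. Below 1.5-fold, 7693 called clusters were higher and 4959 lower in JHOC9. At 1.5-fold or more the numbers were 3117 and 3064, and at 2-fold or more 1280 and 1295. Over the whole table, with its other clusters included, 1331 clusters (2.03%) were higher and 1437 (2.19%) lower by at least 2-fold. The balance of all calls turned with the scaling, from 57.4% higher with the signals as deposited to 47.4% with each array centred on its median (8353 higher, 9254 lower) and 47.3% after cyclic loess (8560 higher, 9547 lower). The median difference over the 62840 clusters was 0.05 as deposited, 0.0050 after centring and 0.0067 after cyclic loess. At 2-fold or more, the lower clusters were more numerous under both, with 1179 higher and 1406 lower after centring and 1181 higher and 1398 lower after cyclic loess.

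Large differences were found in both directions. At 4-fold or more, 357 clusters were higher and 310 lower in JHOC9. At 8-fold or more the numbers were 125 and 101, at 16-fold 45 and 35, and at 32-fold 22 and 14. Differences of 64-fold or more were found for 6 higher and 3 lower clusters. These counts include clusters that repeat the values of another. With repeated clusters counted once, 1197 were higher and 1275 lower at 2-fold or more, against 1280 and 1295. The larger folds were not recounted in this way.

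**Figure D1:**
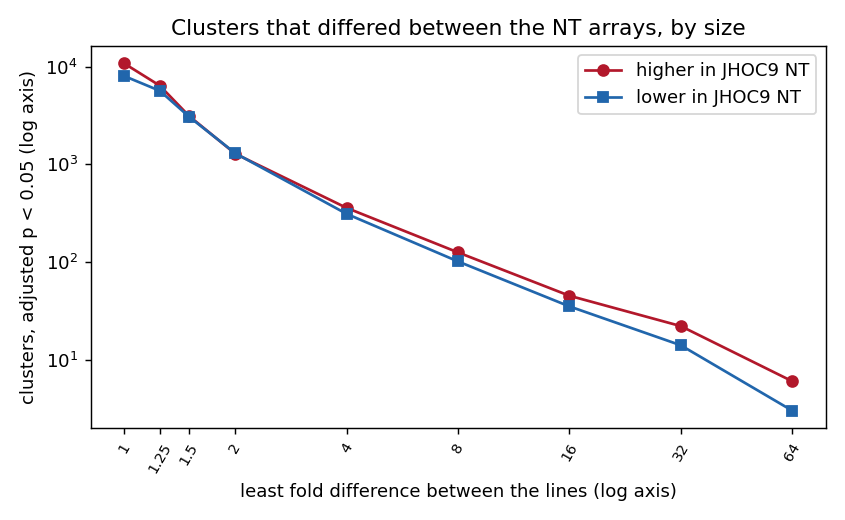
Number of transcript clusters with a limma adjusted p under 0.05 between JHOC9 NT and JHOC5 NT arrays (vertical log axis) that differ by at least the fold on the horizontal log axis, with red circles for higher and blue squares for lower in JHOC9. The curves start at 10810 higher and 8023 lower clusters and meet near 2-fold, with 1280 and 1295. They part again at larger folds, with 357 and 310 at 4-fold and 6 and 3 at 64-fold.

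As a check that does not use the fit, the arrays of the lines were set against each other cluster by cluster. For 9027 clusters, or 14.4%, all 5 JHOC9 arrays lay above all 5 JHOC5 arrays, against 14.2% of the whole table. For 6865 clusters, or 10.9%, they all lay below, against 11.2% of the whole table. Of the 18833 called clusters, 14906 had no overlap between the lines.

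The clusters with the largest differences were at a high signal in 1 line and near or below the array medians in the other. TC05002693.hg.1 had log2 signals of 11.72, 11.56, 12.07, 11.67 and 12.06 on JHOC9 NT arrays a to e. On JHOC5 NT arrays a to e its signals were 5.03, 4.90, 4.90, 4.73 and 5.01. All JHOC9 arrays were thus far above all JHOC5 arrays, and the JHOC5 values lay close to the array medians. The difference of the means of 5 against 5 arrays was 6.90 ± 0.13 (SE), or 119.7-fold, with a limma adjusted p of 1.49e-19. The SE, here and below, is that of the fit of all 22 arrays.

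TC12001181.hg.1 had log2 signals of 11.10, 11.15, 10.77, 11.002 and 10.81 in JHOC9 and of 4.23, 4.16, 4.50, 4.24 and 4.67 in JHOC5. It was high on each JHOC9 array, and each JHOC5 array lay below the array medians. The difference was 6.61 ± 0.12 (SE), or 97.4-fold, with a limma adjusted p of 6.73e-20.

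In the other direction, TC12001572.hg.1 had log2 signals of 3.63, 3.57, 3.78, 3.91 and 3.73 in JHOC9 and of 10.19, 10.29, 10.27, 10.20 and 10.22 in JHOC5. The JHOC5 arrays were high and within a narrow range, with an SD of 0.046 against 0.132 in JHOC9. The difference of -6.51 ± 0.067 (SE) corresponds to 91.0-fold lower in JHOC9, with a limma adjusted p of 5.59e-24.

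TC18000230.hg.1 had log2 signals of 4.02, 3.92, 3.996, 4.01 and 4.10 in JHOC9 and of 10.29, 10.01, 10.44, 10.15 and 10.43 in JHOC5. Here too all JHOC9 arrays were low and all JHOC5 arrays high. The difference was -6.25 ± 0.13 (SE), or 76.3-fold lower in JHOC9, with a limma adjusted p of 2.59e-19. The folds are those of the deposited signal, and how far the low signals lie above background was not tested.

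The same clusters were also far apart on the arrays with the knockdown viruses, which enter none of the NT means. The JHOC9 minus JHOC5 difference of TC05002693.hg.1 was 6.74 with the SPINK1 virus and 6.41 with the IL-6 virus, and that of TC12001181.hg.1 was 6.44 and 6.48. It was -6.24 and -6.25 for TC12001572.hg.1, and -6.06 and -6.61 for TC18000230.hg.1. None of the 4 clusters passed limma's test of a change of the line difference with either virus, with adjusted p from 0.404 to 0.985.

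**Figure D2:**
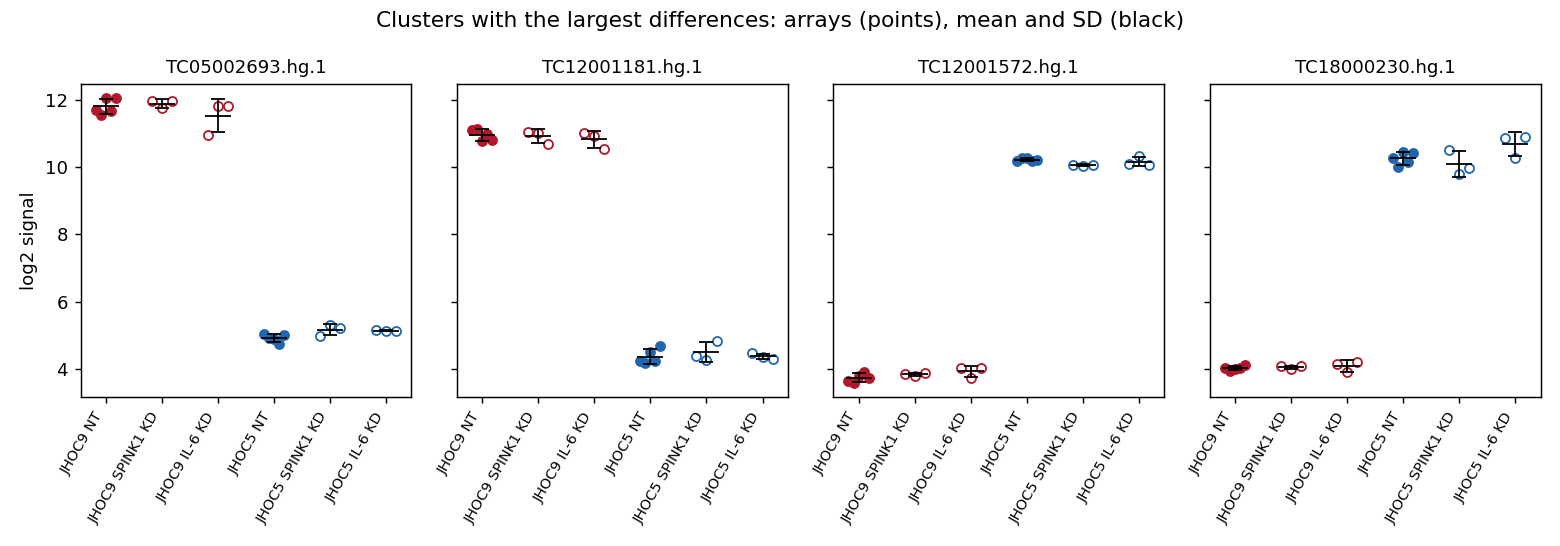
Log2 signal of the clusters with the largest differences between the NT arrays on all 22 arrays, with 1 point per array, filled for NT and open for knockdown (KD), and the mean and SD of each group in black. The red JHOC9 and blue JHOC5 points do not overlap in any panel, and the knockdown arrays lie near the NT arrays of their own line.

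Few clusters went from a high signal in 1 line to a low one in the other. With a mean of at least 7 taken as high and a mean under 4 as low, 16 clusters were high in JHOC9 and low in JHOC5, and 22 were the reverse. All of them passed the test, but the choice itself sets a wide gap between the means, so passing adds no support. The counts describe the ends of the distribution that this choice picks.

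The share of clusters called varied with the signal. Among 10110 clusters with a mean log2 signal under 3 over the NT arrays, 4.78% were higher and 2.83% lower in JHOC9. Among 10969 clusters between 5 and 6, 18.4% were higher and 13.3% lower. Among 5534 clusters between 7 and 8, the shares were 31.8% and 27.2%. They were 23.5% and 18.4% among the 790 clusters at 10 or more. Differences of at least 2-fold followed a similar course, with 0.0396% of clusters under 3, 5.22% between 5 and 6, 9.09% between 7 and 8, 9.25% between 8 and 10, and 3.92% above.  Of the 62840 clusters, 34004 had a signal above the array median on at least 3 of the 22 arrays, and these are called bright below. A cluster can be bright through a single line or group, so this choice depends in part on the line difference.

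Some clusters varied widely within a line. An SD over 0.5 was found for 240 clusters in JHOC9 and 147 in JHOC5, with 63 shared, which are 26.2% and 42.9% of the lists. Replicate b was the farthest from the median of the line's arrays for 85 of the 240 in JHOC9, and replicate c for 65. In JHOC5, replicate c was the farthest for 68 of the 147. Of the 324 clusters with such an SD in either line, 113, or 34.9%, were called between the lines, against 30% of all the clusters described. Leaving out single NT arrays gave between 17150 calls, without JHOC5 NT replicate d, and 18408, without JHOC9 NT replicate b.

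The next comparison asked whether the line difference was also found on arrays that enter none of the NT means. These arrays do enter the spread behind the NT calls. With the SPINK1 virus, 14224 clusters differed between the lines, 7666 higher and 6558 lower in JHOC9, where 22.7% of the whole table passed. With the IL-6 virus, 15851 differed, 8994 higher and 6857 lower, where 25.3% of the whole table passed. Each of these comparisons has 3 against 3 arrays. With array weights the count with the SPINK1 virus rose to 22236 and its balance turned, with 10678 higher and 11558 lower. The count with the IL-6 virus rose to 23248 with array weights, with 14990 higher and 8258 lower. Its balance turned with the scaling, with 5745 higher and 8314 lower after centring and 6586 and 8080 after cyclic loess. With the SPINK1 virus the median difference over all clusters was -0.0023, and with the IL-6 virus it was 0.08.

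Large NT differences were found again with both viruses. Of the 2575 clusters that differed at least 2-fold between the NT arrays, 2561, or 99.5%, had the same sign with both, and 2494, or 96.9%, were called in the same direction with both. These were 1266 of the 1280 higher and 1228 of the 1295 lower clusters. None was called in the opposite direction. The median ratio of the knockdown to the NT line difference was 0.960 with the SPINK1 virus and 0.940 with the IL-6 virus. The clusters were chosen by their NT differences, so these ratios are a description.

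For small NT differences the share was lower. Of the 12652 called clusters under 1.5-fold, 4419, or 34.9%, were called in the same direction with both viruses. Over all 18833 called clusters, 17323, or 92.0%, had the same sign with both and 9916, or 52.7%, were called in the same direction with both, while 3890 were called with neither. The NT and knockdown comparisons share no array in their means, but they share 1 estimate of the spread per cluster. With separate fits of the NT, SPINK1 and IL-6 arrays, 7986 were called in the same direction in all 3. Across the 62840 clusters, the NT line difference correlated at r = 0.922 with that of the SPINK1 arrays and at 0.942 with that of the IL-6 arrays, where the points share the array design and the lines.

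**Figure D3:**
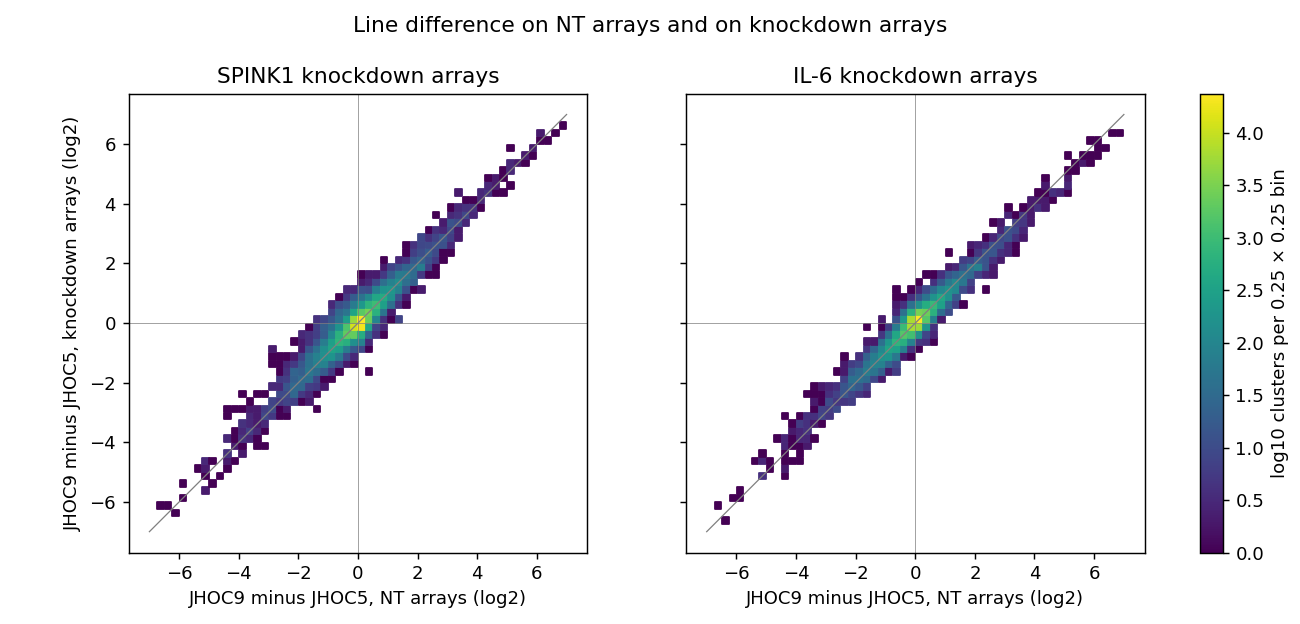
JHOC9 minus JHOC5 difference of log2 group means on the NT arrays (horizontal) against the same difference on the SPINK1 (left) and IL-6 (right) knockdown arrays (vertical), with bins of 0.25 by 0.25 coloured by the log10 number of clusters and a grey line of equal values. Most of the 62840 clusters lie along the line of equal values, with r of 0.922 and 0.942.

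The line difference itself changed with the SPINK1 virus for 773 clusters by limma's interaction test, where 1.24% of the whole table passed. The NT difference was the more negative for 638 of them and the more positive for 135. Of the 773, 574 were among the clusters called between the NT arrays, against 30% of all clusters described. The interaction test contains the NT difference itself, so part of this overlap is built in. With the IL-6 virus only 2 clusters passed this test, or 0.00305% of the whole table.

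For 98 of the 18833 called clusters the SPINK1 arrays gave a call in the opposite direction. In 85 of them the NT signal was lower in JHOC9 and the SPINK1 virus signal higher. Their median log2 signal was 7.65 in JHOC9 and 8.12 in JHOC5 with NT, and 7.35 in JHOC9 and 6.83 in JHOC5 with the SPINK1 virus. The larger step of these medians between viruses was in JHOC5. Their median line difference was -0.40 with NT, 0.44 with the SPINK1 virus and -0.63 with the IL-6 virus, and 79 were also called lower in JHOC9 with the IL-6 virus. The remaining 13 had median differences of 0.25 with NT, -0.31 with the SPINK1 virus and 0.12 with the IL-6 virus. Only 12 clusters were called in the opposite direction with the IL-6 virus. These sets were chosen by their turn, so their values are a description.

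The characters after TC in a cluster ID follow the array maker's naming and give a chromosome code. The number of clusters per code and the number of RefSeq genes per chromosome had a Spearman's rho of 0.959 over 22 codes. Positions were not used, and the build is not given in the sources used here. For each array, every bright cluster was set against its mean over the 10 NT arrays, and the median of each code was taken relative to that of all bright clusters. No test was run over the clusters of a code, and 24.3% of all bright clusters were called higher and 19.4% lower in JHOC9.

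The codes did not differ alike between the lines. For 6 codes (07, 11, 14, 15, 19 and 21) all 5 JHOC9 arrays lay above all 5 JHOC5 arrays, for 7 (01, 02, 03, 05, 06, 12 and 18) all lay below, and for 9 the lines overlapped. The same codes were found with all clusters in place of the bright ones. Some gaps were narrow. Over bright clusters of code 14, the lowest JHOC9 value was 0.0013 and the highest JHOC5 value -0.00052. For code 03 the highest JHOC9 value was -0.0032 and the lowest JHOC5 value -0.00047. After cyclic loess 6 codes lay above and 7 below over bright clusters, and 5 above and 7 below over all clusters. The sizes of the shifts depended on the dim clusters, so the value over all clusters is given beside each.

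Code 01 was lower in JHOC9, with 27.9% of 3525 bright clusters called lower and 17.1% higher, and with 199 lower and 80 higher at 2-fold or more. Its relative medians were -0.0251, -0.0272, -0.0332, -0.0585 and -0.0260 on JHOC9 NT arrays a to e and 0.0236, 0.0280, 0.0415, 0.0349 and 0.0334 on the JHOC5 arrays. All JHOC9 values were below all JHOC5 values. Clusters were centred over the NT arrays of both lines, so opposite signs follow from such a difference and add nothing to it. Relative to all bright clusters, the median line difference of code 01 was -0.054 with NT, -0.046 with the SPINK1 virus and -0.061 with the IL-6 virus. Over all 6342 clusters of the code these were -0.022, -0.022 and -0.027.

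Code 15 was higher in JHOC9, with 33% of 1595 bright clusters called higher and 9.15% lower. Its relative medians were 0.0454, 0.0304, 0.0241, 0.0360 and 0.0582 on JHOC9 NT arrays a to e and -0.0509, -0.0316, -0.0138, -0.0369 and -0.0399 on the JHOC5 arrays. All JHOC9 values were thus above all JHOC5 values, and the centring places such lines on either side of 0. The relative median line difference was 0.055 with NT and 0.056 and 0.060 with the SPINK1 and IL-6 viruses. Over all 2783 clusters of the code they were 0.042, 0.032 and 0.042. At 2-fold or more, 65 bright clusters were higher and 29 lower. Code 11 showed a smaller shift of the same sign, 0.033, with 28.2% of 1986 bright clusters called higher and 11.7% lower, and with 90 higher and 41 lower at 2-fold or more. It was 0.018 over all clusters. Code 21 was at 0.039, with 29.3% of 482 bright clusters called higher and 12.7% lower. Its value over all clusters was 0.0067, and at 2-fold or more 15 of its bright clusters were higher and 26 lower, the opposite balance.

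Among bright clusters, the largest relative medians by size were those of code 18, at -0.20, with 44% of 455 bright clusters called lower and 10.3% higher in JHOC9, and of code 06, at -0.071, with 28.8% lower and 14.2% higher. Code 19 followed at 0.068, with 38.6% of 2058 bright clusters called higher and 8.65% lower. Over all clusters the order differed, with code 19 at 0.073, code 18 at -0.055 and code 06 at -0.023. Code 08 was at -0.0037 over bright and -0.0060 over all clusters, and the lines overlapped.

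Over the bright clusters of the 22 codes, 17 codes had a relative median of the same sign with both knockdown viruses as with NT. The relative medians correlated with those of NT at r = 0.973 for the SPINK1 virus and 0.986 for the IL-6 virus. Over all clusters 16 codes had the same sign, with r of 0.921 and 0.986. These correlations run over codes measured on the same array design. The 22 clusters of code 0M had a median signal of 13, and 2 were called higher and 4 lower in JHOC9. Their relative median ranged from -0.22 to 0.060 over the JHOC9 arrays and from -0.036 to 0.078 over the JHOC5 arrays, so the lines overlapped.

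**Figure D4:**
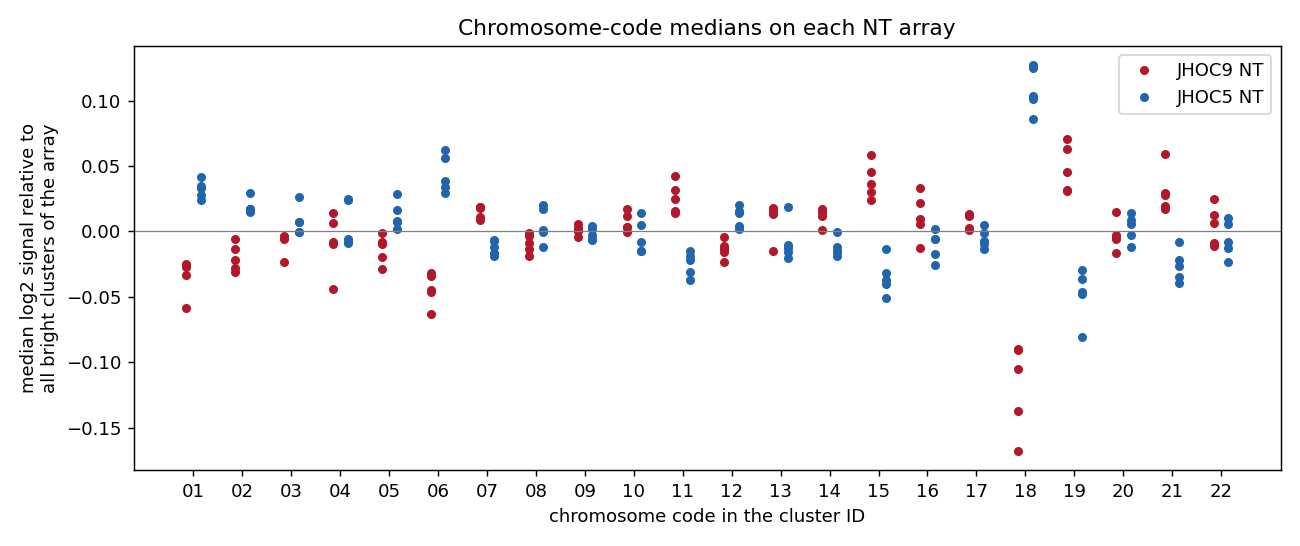
Median log2 signal of the bright clusters of each chromosome code, after setting each cluster against its mean over the 10 NT arrays and relative to all bright clusters of the array, with 1 point per NT array (red JHOC9, blue JHOC5). The lines do not overlap for 13 of the 22 codes, and code 18 has the widest gap among bright clusters, with a relative median difference of -0.20, which was -0.055 over all clusters.

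Within a code, clusters with neighbouring IDs resembled each other in their line difference. The Spearman correlation between clusters whose IDs follow each other was 0.211 over 61815 pairs, with repeated values counted once. It was 0.090 for clusters 5 places apart, 0.066 for 20 places and 0.036 for 100 places. With bright clusters alone it was 0.232 for adjoining IDs. For the SPINK1 and IL-6 arrays the value for adjoining IDs was 0.163 and 0.176. Whether the order of IDs follows genome position was not tested.

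To see where along the IDs the difference lay, the bright clusters were taken in 1325 windows of up to 25 clusters in the order of their serial numbers, the digits that follow the code. The median difference of a window, relative to all bright clusters, lay between -0.24 and 0.12 from the 5th to the 95th percentile. Windows at -0.4 or below numbered 21, of which 8 had code 01, 5 code 18, 3 code 08, 2 code 02, 2 code 06 and 1 code 03. At 0.4 or above there were 2, with codes 02 and 15. All 21 low and both high windows had the same sign with both knockdown viruses. In all 21 low windows the JHOC9 and JHOC5 arrays did not overlap. Windows were picked out by their values, so these counts are a description.

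The lowest windows were 2 of code 01 and 1 of code 18, each with a relative median of -0.76. In the window of code 01 with serial numbers 4642 to 4698, 14 of 25 clusters were called lower and 1 higher, and 10 were lower by at least 2-fold. In that with serial numbers 2771 to 2829, 18 were called lower and 1 higher. In the window of code 18 with serial numbers 423 to 476, 19 were called lower and none higher. With the SPINK1 and IL-6 viruses the relative medians of these windows were -0.58 and -0.70, -0.60 and -0.73, and -0.59 and -0.995.

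The highest window, of code 02 with serial numbers 819 to 859, had a relative median of 0.74. In it 17 clusters were called higher in JHOC9, of which 10 by at least 2-fold, and 3 lower. It was 0.84 with the SPINK1 virus and 0.64 with the IL-6 virus. The lines did not overlap, with array medians from 0.14 to 0.65 in JHOC9 and from -0.48 to -0.26 in JHOC5.

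The next window, of code 15 with serial numbers 48 to 136, had a relative median of 0.48, with 16 clusters called higher and none lower. Here the arrays of the lines overlapped, with medians from 0.0052 to 0.76 in JHOC9 and from -0.45 to 0.081 in JHOC5. Its clusters also moved together within groups, with a median correlation of their deviations from the group means of 0.764 over 22 arrays, against 0.042 for the median window. The values of this window therefore varied between arrays of 1 line as well as between the lines.

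**Figure D5:**
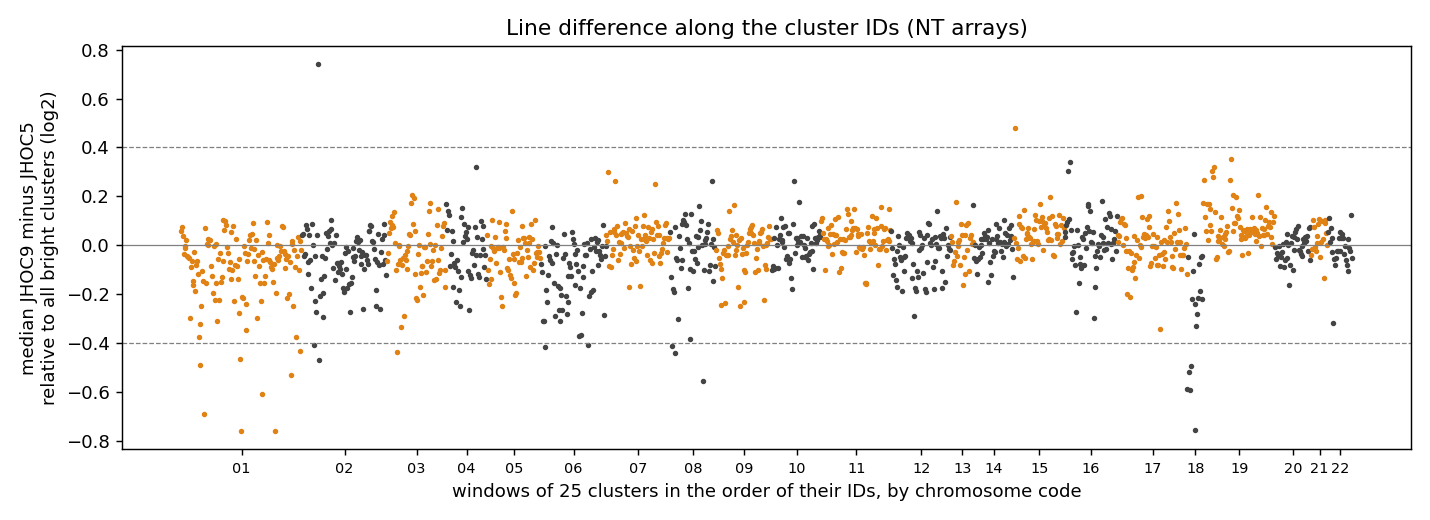
Median JHOC9 minus JHOC5 difference of log2 signal on the NT arrays, relative to all bright clusters, for 1325 windows of up to 25 clusters in the order of their IDs, with alternating colours for the chromosome codes and dashed lines at -0.4 and 0.4. Of the windows beyond the dashed lines 21 lie below, 8 of them in code 01 and 5 in code 18, and 2 lie above.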

How the data were processed

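Per the labels, biotin-labelled samples from 200 ng of total RNA each were measured on GeneChip Human Transcriptome Array 2.0 arrays. The submitters' processing notes name RMA (background correction, quantile normalization and summary of probes) with no version. Which software, annotation and build it ran with is not given in the sources used here. Deposited log2 values of the series matrix equal, to within 2.06e-06, a cluster's log2 signal less its median across all 22 arrays. In the second deposited table these log2 values recur to within 5.00e-07, beside linear intensity values between 2.81 and 15242 that are already 1 per cluster. Their distributions are nearly equal, with sorted log2 values within 0.423, so a shift in total RNA between groups would not appear.

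Groups were taken from the titles. All 22 arrays entered 1 model of 6 group means in limma 3.58.1 (R 4.3.3, with version 1.17.8 of data.table), with eBayes, 16 residual and 4.22 prior degrees of freedom, two-sided tests and Benjamini-Hochberg adjustment at 0.05 over 65526 clusters. A difference is JHOC9 minus JHOC5 of log2 means. The script was tested on simulated data. Plots were made in Python 3.11.15 with matplotlib 3.10.9.

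Among the clusters described, 938 repeat another within 1e-05 on all arrays and 44 have IDs without a usual code. The named clusters are the 2 with the largest difference in each direction among those with an adjusted p under 0.05 and no overlap between the lines. This stands in for a rule on named genes, as did leaving out the marker lists, because no file pairs IDs with names. The members, rules and alternatives were chosen with earlier results of these data known. Deviations of same-lettered NT arrays of the lines correlated at -0.23, -0.17, -0.10, -0.21 and 0.14, so the letters were not treated as pairs. Alternatives covered the replicate block, the arrays in the fit, scaling, a filter on dim clusters, array weights, eBayes with trend and robust, repeated clusters counted once, the other table, thresholds and each array left out.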

Additional observations from a re-analysis of the deposited data

Results flagged for a closer look

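In groups of 5 arrays, 58 sets of values were examined for 1 array standing apart from the other 4 by Dixon's criterion, and 6 met it. Chance marks about 1 in 20 such sets. All 6 were medians of a chromosome code over bright clusters, relative to all bright clusters, and in each of them the array was replicate d. JHOC9 NT replicate d was the lowest of its line for code 01 at -0.0585, for code 03 at -0.0237 and for code 13 at -0.0146, and the highest for code 21 at 0.0593. JHOC5 NT replicate d was the highest of its line for code 02 at 0.0291 and for code 13 at 0.0184.

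The line difference itself differed between the NT arrays and the SPINK1 virus arrays for 773 clusters by limma's interaction test, and between the NT arrays and the IL-6 virus arrays for 2.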

How the results depend on the processing

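The NT comparison gave between 14463 and 21089 clusters under the alternatives that keep every size of difference, against 18833, and 6181 at 1.5-fold or more. With the replicate block the count was 17332 over the 10 NT arrays and 18837 over all arrays. A paired fit of the knockdown arrays alone was not run, since those of the lines share 1 letter only. Array weights raised the SPINK1 virus comparison from 14224 to 22236 clusters, with 10678 higher and 11558 lower, and gave JHOC9 SPINK1 knockdown replicate b a weight of 6.46. The cause was not tested. Leaving out 1 array gave 17150 to 18408 clusters for NT, 2554 to 2662 at 2-fold or more, 8966 to 9887 called with NT and both viruses, 12456 to 13334 for the SPINK1 virus and 12665 to 18799 for the IL-6 virus. The 4 named clusters kept their calls in all 80 combinations of cluster and setting tried. Their limma adjusted p was larger when only the 10 NT arrays were fitted, from 1.02e-14 to 4.98e-13. With the replicate block over these arrays it was larger still, from 1.03e-09 to 7.62e-09. The medians of the chromosome codes over all clusters moved by more than the spread of the arrays in 12 of 66 cases, all of them on going to the bright clusters, as for code 18 from -0.055 to -0.20 and for code 01 from -0.022 to -0.054. The block over all arrays, separate fits, leaving out knockdown arrays for the shared count, cyclic loess with bright clusters, and the windows with both starts were added after seeing the data, and windows that start 12 clusters later gave 21 at -0.4 or below and 3 at 0.4 or above. The number of arrays limits what small differences show, and no measure of background was used for low signals.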
